A study of Drosophila melanogaster with 39 samples.

Results

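Whole testes of Drosophila melanogaster males mutant for Leo1L, a testis paralog of the PAF1 complex subunit Leo1, were compared with testes of control males. The Leo1L group holds 6 of the 21 whole-testis libraries and of the 39 samples in all: 3 libraries from one cross and 3 from its inverted form, chosen by their labels. All 6 carry the transheterozygous genotype that the labels name Leo1L TH1, meaning that the 2 chromosomes bear different mutant alleles of the gene. The controls are 6 libraries of a pair of stocks, 3 of w1118 and 3 of w1118 iso, and both stocks carry the genotype label Control (w1118). Transheterozygous mutants of Paf1L (TH2), Ctr9L (TH2) and Cdc73L (TH1), with 3 libraries each, make up the rest of the whole-testis set. A separate experiment gives 3 columns of sorted Leo1L spermatocytes and 3 of sorted control spermatocytes. These sorted controls are labelled w1118, and the sort purity was at least 85% in both groups. The sorted mutants carry the allele Leo1L FS1 in homozygous form, and the sorted mutants and controls alike carry an endogenously GFP-tagged Cdc73L, which served for the sort. Flies were 1 to 3 days old in every group, and the temperature given for all groups was 25 °C. The labels do not say that whole-testis replicates came from separate animals or pools, so p-values measure the spread between these libraries, which may be technical; the sorts were done in 3 independent experiments.

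The PAF1 complex travels with elongating RNA polymerase II, is needed for several histone marks of transcribed chromatin, and acts in elongation and in the processing and termination of transcripts. Leo1 is one of its subunits, beside Paf1, Ctr9, Cdc73 and Rtf1. Drosophila has a second, testis-biased set of these subunits, which in the testis stands beside the canonical set. In the testis, germ cells pass from stem cells and spermatogonia through a long growth phase as spermatocytes, in which most of the genes for sperm formation are transcribed, into meiosis and spermatid differentiation.

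The deposited values are a normalised signal per gene, named GeTMM. The worth of 1 read was the same for short and long genes, so the values are not per length although that name implies it, and levels are compared within a gene, between groups. Approximate depth, from the smallest steps between low values, was 9.47 to 11.2 M reads (M, 1e+06) in the Leo1L libraries, 8.68 to 11.6 M in the controls and 7.98 to 20.9 M in the sorted columns. A signal worth 3 reads was 0.258 to 0.33 in Leo1L libraries and 0.27 to 0.377 in controls, and this floor covers counting error only. A gene was called where the limma adjusted p (Benjamini-Hochberg over 10925 genes with a mean signal of at least 1) was under 0.05 and the difference of log2(signal + 1) was at least 1. Differences are on that log2(signal + 1) scale throughout, and on it the change of weakly expressed genes is understated. No library of the Leo1L or control groups stood apart from its group in correlation across genes, where replicate pairs had r of 0.967 to 0.985 (12 pairs).

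The labels were checked on the mutated gene itself. Leo1L is encoded by CG10887 (FBgn0038773), on the plus strand of chromosome 3R from 20114838 to 20117139. The signal of CG10887 was 15.5, 16.6 and 17.5 in the cross and 18.2, 17.4 and 17.7 in the inverted cross. In w1118 it was 67.7, 63.0 and 58.4, and in w1118 iso 53.7, 65.1 and 70.0. All 6 mutant libraries lay far below all 6 controls, and the crosses lay close together. The means were 17.1 ± 0.956 in Leo1L testes and 63.0 ± 6.07 in controls (SD, n = 6 each), a difference of -1.81 (SE 0.06, limma adjusted p = 1.6e-13). The transcript was thus lowered but not lost. In sorted spermatocytes it was at 8.20, 6.18 and 7.76 in Leo1L columns, against 23.1, 17.0 and 20.4 in control columns (difference -1.33, limma adjusted p = 0.000473). The other paralogs did not pass the test in Leo1L testes. CG12674, the gene of Paf1L, spanned 45.7 to 54.7 against 47.6 to 59.7 in controls, and CG9899, the gene of Ctr9L, spanned 106 to 131 against 107 to 127; the Cdc73L gene was not analysed here.

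Small rises, under the fold limit, passed an adjusted p under 0.05 for 4 of the 5 canonical subunits in Leo1L testes. By the same measure 20.8% of all tested genes were higher. The differences were 0.30 for atms (the Drosophila Paf1), 0.27 for Atu (Leo1), 0.19 for Ctr9 and 0.19 for Rtf1, while hyx (Cdc73) was at -0.08 (limma adjusted p = 0.367). For atms the signal had a lowest value of 36.9, a median of 40.9 and a highest of 48.5 in Leo1L testes, against 32.6, 33.6 and 36.0 in controls, without overlap. Ctr9 and Rtf1 did not pass with w1118 iso as the only controls. Rtf1 did not pass in 15 of 27 alternatives, and Atu in 2 of 27. With the cross alone, Atu and Rtf1 did not pass (limma adjusted p = 0.135 and 0.24). With the inverted cross alone, Rtf1 did not pass either (limma adjusted p = 0.0532). In sorted spermatocytes no canonical subunit was higher, and Ctr9 was lower, with 34.4, 34.6 and 41.0 in Leo1L columns against 45.7, 47.6 and 55.7 in control columns in ascending order (difference -0.43, limma adjusted p = 0.038).

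**Figure D1:**
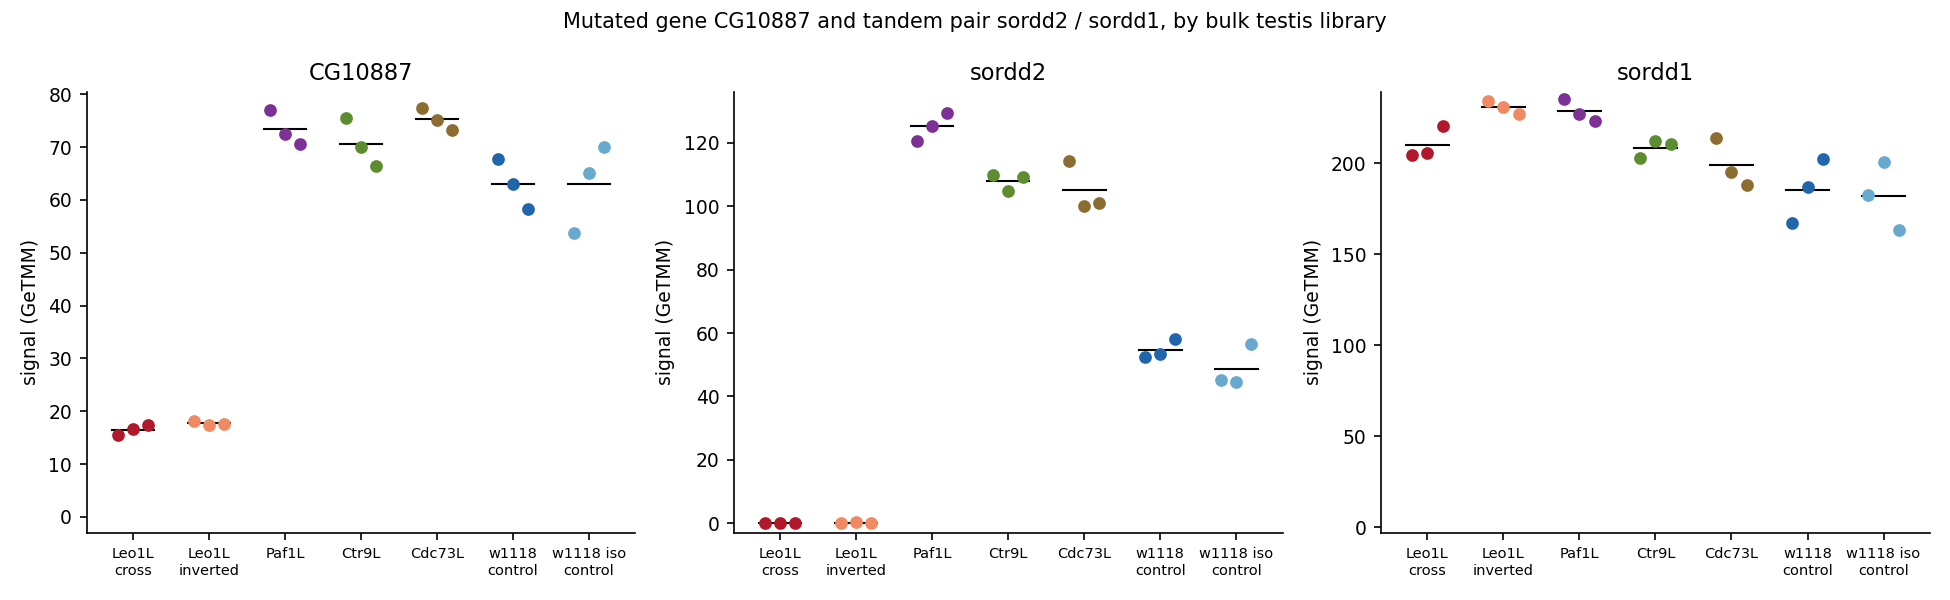
Signal (GeTMM, linear y axis) of CG10887, sordd2 and sordd1 in each library of the Leo1L crosses, the other mutants and the control stocks; each point is 1 library and each bar a group mean. CG10887 sits at 15.5 to 18.2 in Leo1L testes and at 53.7 to 70.0 in controls, and sordd2 is at or near 0 in Leo1L testes alone among these groups.

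Leo1L testes differed from controls by at least the fold limit in a small set of genes and by less in a much larger one. In Leo1L testes 108 genes were called higher (0.989% of those tested) and 128 lower (1.17%). Without the fold limit, 2268 genes were higher (20.8%) and 2163 lower (19.8%) at an adjusted p under 0.05; with every library rescaled to the same total, the split was 2856 higher and 1812 lower. Called genes whose 6 mutant libraries all lay beyond all 6 controls, so outside both stocks and alike in both crosses, numbered 88 higher (0.805%) and 75 lower (0.686%). These 163 genes are called separated below. Without any fold limit or test, the libraries did not overlap for 855 genes that were higher (7.83%) and 750 that were lower (6.86%).

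Most raised genes had little signal in control testes. Of the 88, 59 had a control mean under 5 and 20 a control mean under 1, against 1926 and 133 of all 10925 tested genes, and their median mean signal was 9.62 in Leo1L testes and 2.91 in controls. The lowered genes had a median mean signal of 6.93 in Leo1L testes and 21.6 in controls, and 5 of 75 had a Leo1L mean under 1. The median difference was 1.36 for raised and -1.24 for lowered genes, against 0.01 over all tested genes. Raised genes had a median exon length of 2686.5 bases and lowered genes 1282, against 1956 for all tested genes. The signal is not per length, so longer genes gather more reads, and the part of length in these differences was not tested. At the edge of the fold limit, Ugt49B2 was just inside among the raised genes and CG15200 just outside, both at 1.00 after rounding, and CG34169 at -1.01 was just inside among the lowered genes with CG10845, at 105 to 143 in Leo1L testes and 203 to 309 in controls, just outside.

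The largest rises were in unc79, CG33669, kek3 and para. For unc79, which encodes a partner of the sodium leak channel (chromosome 3R, 19230764 to 19246130, minus strand), the cross had 37.5, 38.3 and 49.7 and the inverted cross 50.3, 34.1 and 37.6. Controls had 0.763, 1.84 and 2.41 in w1118 in ascending order and 1.85, 2.52 and 3.52 in w1118 iso. Separated genes lack overlap by choice, but here the margin was wide, with a difference of 3.79 (SE 0.17, limma adjusted p = 1.1e-11). The voltage-gated sodium channel gene para (X, 16455027 to 16533096, minus strand) had a lowest signal of 16.5, a median of 19.8 and a highest of 22.8 in Leo1L testes, against 0.868, 1.57 and 1.88 in controls (difference 3.07, SE 0.125, limma adjusted p = 3.2e-12). The kekkon gene kek3, for a membrane protein with leucine-rich repeats, had 25.8, 30.0 and 36.2 in Leo1L testes against 1.20, 2.40 and 4.27 in controls (difference 3.23). Controls of both stocks had little signal of these 3 genes, 4.27 at most.

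A neuropeptide gene, a peptide receptor gene and a secreted protease gene were also among the 12 largest rises. The neuropeptide gene CCHa1 (3R, 14092504 to 14096835, minus strand) had a lowest, median and highest signal of 10.8, 12.5 and 16.2 in Leo1L testes, against 0.326, 1.28 and 2.92 in controls (difference 2.67, SE 0.175, limma adjusted p = 1.5e-09). FMRFaR, the receptor of FMRFamide peptides, had 6.81, 7.94 and 8.97 against 0.0914, 0.793 and 1.90 (difference 2.32). Among 24 tested neuropeptide receptors, a list compiled after these values were known, 8 were higher and 3 lower at an adjusted p under 0.05, against 20.8% and 19.8% of all tested genes; the median over the 24 was -0.04. FMRFaR, Dh44-R1, TkR86C and CNMaR were called higher, against 0.989% of all tested genes. Dh44-R1, a receptor of the diuretic hormone Dh44, spanned 4.05 to 6.35 in Leo1L testes and 0.625 to 1.00 in controls (difference 1.75). TkR86C, a tachykinin-type receptor, spanned 7.36 to 11.5 and 3.51 to 4.77 (difference 1.09). tld, which encodes the metalloprotease Tolloid of BMP signalling, spanned 6.46 to 9.98 in Leo1L testes and 0.214 to 1.25 in controls (difference 2.55).

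Cad99C, Con and Tmc, which encode membrane proteins, were among the 12 as well. The protocadherin gene Cad99C had a lowest, median and highest signal of 17.9, 20.1 and 26.4 in Leo1L testes, against 1.58, 2.58 and 5.68 in controls (difference 2.58). Con, for the adhesion molecule Connectin, spanned 6.53 to 11.3 and 0.368 to 2.44 (difference 2.16). Tmc, for a transmembrane channel-like protein of mechanosensory cells, spanned 7.20 to 8.55 and 0.366 to 1.09 (difference 2.39). None of these 3 genes had overlapping groups, which the choice of separated genes requires. TwdlG, of the Tweedle family of cuticle proteins, spanned 4.15 to 5.74 and 0.00 to 0.746 (difference 2.16). The family was picked after this value was seen. Of 6 tested Tweedle genes 4 were higher and 1 lower at an adjusted p under 0.05, against 20.8% and 19.8% of all tested genes. CG17568 spanned 25.0 to 32.8 in Leo1L testes and 4.24 to 7.60 in controls (difference 2.15).

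Some further raised genes were picked after their values were seen, for what they encode. They include wda, for a subunit of the SAGA chromatin complex, at 40.6 to 71.7 in Leo1L testes and 10.5 to 12.6 in controls (difference 2.01). FASN2, a fatty acid synthase, spanned 30.9 to 51.8 and 7.37 to 16.5 (difference 1.74), and bgm, an acyl-CoA synthetase for very long chains, spanned 29.4 to 40.8 and 11.7 to 22.1 (difference 1.10). The integrin alpha gene mew spanned 52.4 to 58.2 and 16.0 to 28.3 (difference 1.30). Each of these 4 had a signal of at least 7.37 in every control. Clk, the circadian transcription factor, had a lowest, median and highest signal of 184, 199 and 231 in Leo1L testes against 72.1, 94.4 and 119 in controls (difference 1.10, limma adjusted p = 3.6e-08). Sensory receptor genes with little signal in controls were raised too: Or1a spanned 2.40 to 4.73 and 0.00 to 0.520 (difference 1.85), and Ir68b spanned 2.36 to 4.74 and 0.185 to 0.595 (difference 1.62). Of 8 tested odorant receptors 2 were higher and none lower at an adjusted p under 0.05 (median -0.10), a share near the 20.8% of all tested genes, and of 14 tested ionotropic receptors 5 were higher and 1 lower.

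Several raised genes belong to families of near-identical copies, among which the counting could split reads, so their levels are uncertain. Sdic3 and Sdic4, copies of a sperm dynein intermediate chain gene on the X chromosome, spanned 360 to 597 and 600.3 to 763 in Leo1L testes, against 57.8 to 299 and 119 to 468 in controls (differences 1.85 and 1.52). Both also differed between the control stocks, with w1118 above w1118 iso. Mst77Y-13, a copy of a sperm chromatin protein gene on the Y chromosome, spanned 240.4 to 291 and 70.7 to 119 (difference 1.31). CG33669 is separated, but its size rests on the stocks: it spanned 219 to 256 in Leo1L testes, against 0.955 to 2.02 in w1118 and 139 to 171 in w1118 iso, and the difference of 3.58 fell to 0.59 with w1118 iso as the only controls. In all, 6 of the 88 raised and 5 of the 75 lowered genes were also called between the stocks, where 1.47% of all tested genes were called. For 4 of these 6 and all 5, w1118 iso differed from w1118 in the direction in which Leo1L testes differed from controls.

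**Figure D2:**
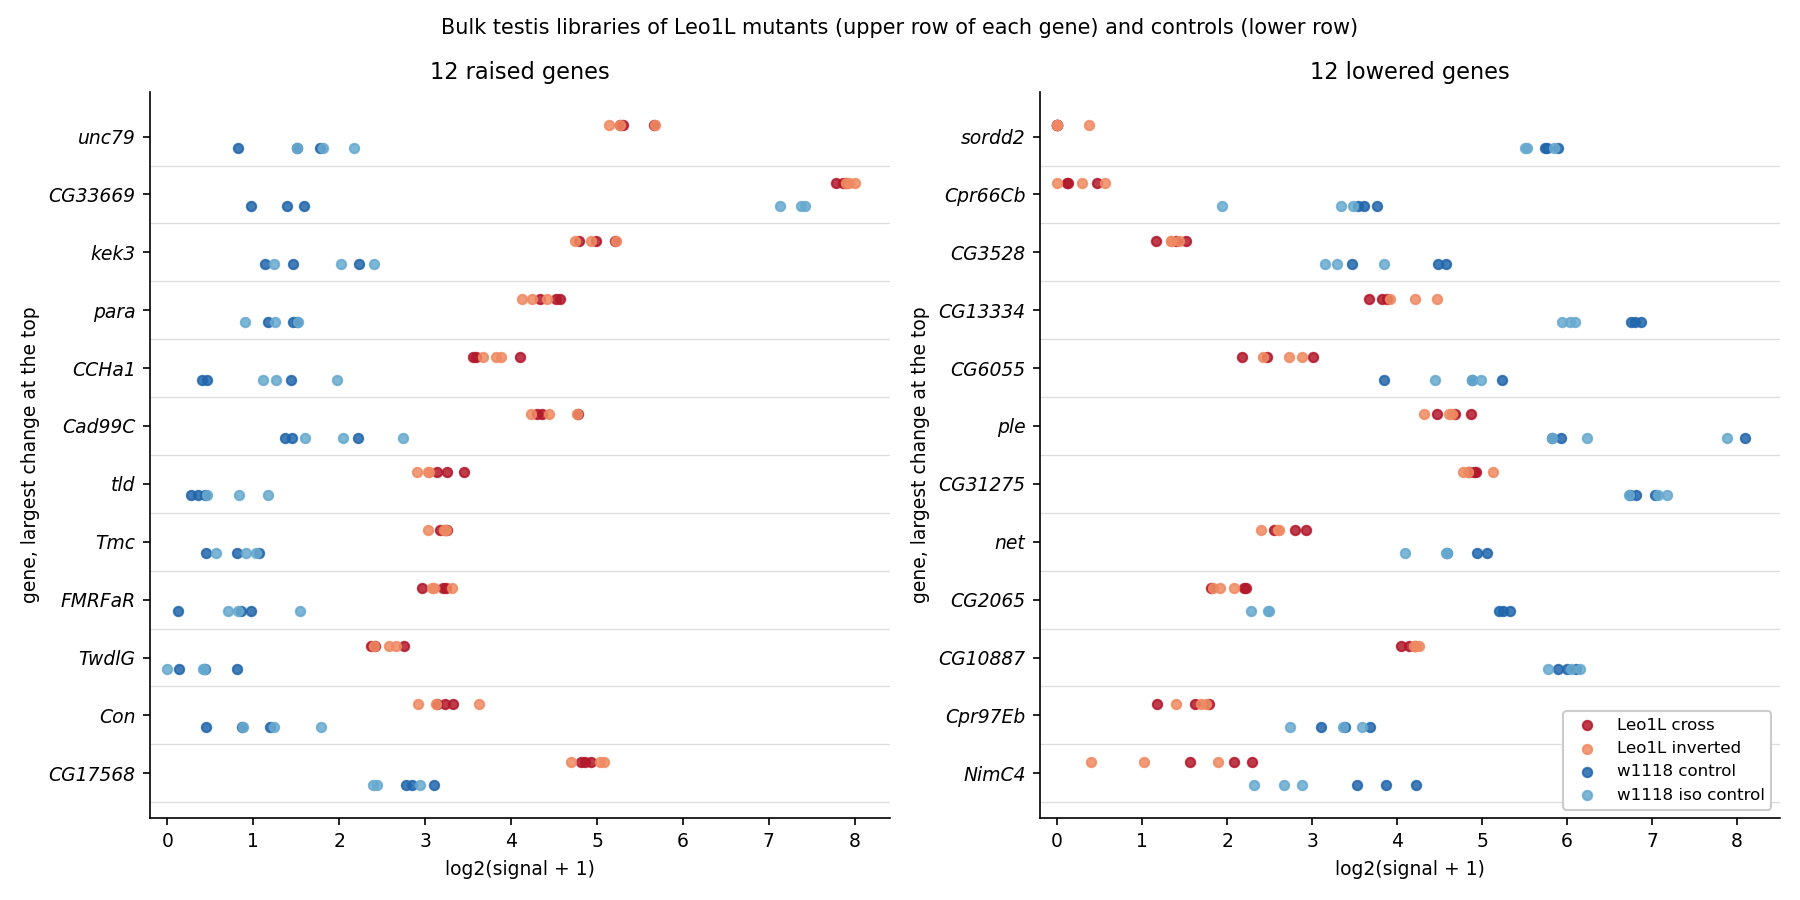
Signal as log2(GeTMM + 1), on the x axis, of the 12 raised and the 12 lowered separated genes with the largest difference, for each library of the Leo1L crosses and the control stocks; each point is 1 library, with Leo1L libraries in the upper row of a gene. Points of Leo1L testes and controls do not overlap in any of these genes, because separated genes were chosen for that. CG33669 and CG2065 show a wide gap between the 2 control stocks.

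The largest fall was in sordd2 (X, 15796908 to 15799162, minus strand). It was listed at 0 in 5 of the 6 Leo1L libraries and at 0.294 in inverted cross replicate 2, about the worth of 3 reads. Controls had 52.6, 53.5 and 58.2 in w1118 and 45.2, 44.6 and 56.7 in w1118 iso. The fitted difference was -5.65 (SE 0.0733, limma adjusted p = 2.5e-20). This value depends on the pseudocount and lay between -8.68 and -3.49 over the alternatives. In sorted spermatocytes sordd2 was at 0, 0.135 and 0 in Leo1L columns, against 113, 166 and 117 in control columns. Mutants of the other subunits had more signal than controls: Paf1L testes had 121, 125 and 130, Ctr9L testes 110, 105 and 109, and Cdc73L testes 114, 100.2 and 101. Their differences from the controls were 1.26, 1.05 and 1.01, each past the adjusted p and the fold limit. The neighbouring gene sordd1 (X, 15793721 to 15796028, minus strand) was retained, with a lowest, median and highest signal of 205, 224 and 234 in Leo1L testes against 163, 185 and 202 in controls (difference 0.26, limma adjusted p = 0.00065). The 2 genes lie side by side and are of like name, and how the counting divided reads between them is not given in the sources used here. CG10887 and sordd2 were the only 2 of the 75 lowered genes that were also lower than in Paf1L testes at an adjusted p under 0.05.

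Large falls were also found in net, ple, a pair of cuticle protein genes and several genes known by number. The bHLH transcription factor gene net had a lowest, median and highest signal of 4.28, 5.10 and 6.61 in Leo1L testes, against 16.1, 23.1 and 32.3 in controls (difference -1.99, SE 0.109, limma adjusted p = 1.7e-10). CG31275 had 26.3, 28.4 and 34.03 against 105, 121 and 143 (difference -2.03), and CG3528 had 1.25, 1.59 and 1.87 against 7.91, 11.7 and 22.8 (difference -2.44). CG13334 had 11.7, 14.0 and 21.1 in Leo1L testes, against 107 to 117 in w1118 and 60.5 to 67.4 in w1118 iso (difference -2.42). For each of these genes the Leo1L libraries lay below both stocks, which the choice of separated genes requires. The cuticle protein genes Cpr66Cb and Cpr97Eb spanned 0.00 to 0.477 and 1.26 to 2.46 in Leo1L testes, against 2.84 to 12.6 and 5.66 to 11.9 in controls (differences -3.02 and -1.74). ple, the tyrosine hydroxylase of pigment and dopamine synthesis, spanned 19.0 to 28.3 in Leo1L testes against 55.5 to 273 in controls (difference -2.04, SE 0.338, limma adjusted p = 0.0001). The wide spread among controls came from w1118 replicate 3 (273) and w1118 iso replicate 1 (236), and the other controls lay between 55.5 and 74.5. The size of the difference rests in part on these high libraries. NimC4, a receptor for engulfment of dying cells, spanned 0.323 to 3.91 and 4.00 to 17.7 (difference -1.71), so that the groups only just missed overlap. CG6055 spanned 3.51 to 7.03 in Leo1L testes and 13.4 to 36.8 in controls (difference -2.10). CG2065 was separated by little from w1118 iso: it spanned 2.52 to 3.67 in Leo1L testes, against 35.7 to 39.2 in w1118 and 3.86 to 4.61 in w1118 iso, and the difference of -1.82 became -0.40 with w1118 iso alone.

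Called genes that were not separated had libraries that overlapped the controls, and 6 of the 20 raised and 19 of the 53 lowered ones were also called between the stocks. Among the 20 raised genes of this kind, PPO1, Mal-A6 and Amy-p had the largest differences, and all 3 overlapped the controls; PPO1 spanned 6.38 to 34.8 in Leo1L testes and 0.630 to 25.5 in controls. Among the 53 lowered ones, RabX2 was at 0 in 5 Leo1L libraries and 0.0946 in the sixth, against 18.6, 23.0 and 18.5 in w1118 and 0, 0 and 0.103 in w1118 iso. In sorted cells RabX2 was higher in Leo1L columns, at 46.2, 55.2 and 61.2, and at 0 in every control column. These sorted controls are labelled w1118, but for RabX2 they lay near w1118 iso. Mean CG33669 was 153 in sorted controls, 158 in w1118 iso and 1.53 in w1118, and mean CG15760 was 14.3, 11.7 and 2.19. Mean CG2065 lay between the stocks, at 20.98, 4.35 and 37.3. Sorted and whole-testis values were normalised separately. The part of stock background in the sorted comparison was not tested. Cyp12d1-d was at 0 in all 6 Leo1L libraries and all 3 of w1118 iso, against 13.3 to 27.0 in w1118. CG33307 likewise was high in w1118 alone. All 19 lowered genes that were also called between the stocks were lower in w1118 iso than in w1118. This direction was not particular to them. Of the 161 tested genes called between the stocks, 143 differed in w1118 iso from w1118 in the direction in which Leo1L testes differed from controls.

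Genes of the Y chromosome moved in both directions. Of 16 tested Y-linked genes 8 were lower and 5 higher at an adjusted p under 0.05 (median -0.23), against 19.8% and 20.8% of all tested genes. In a list of 12 of them, which hold the fertility factors and other known Y-linked genes, 8 were lower and 1 higher, and the median was -0.60. The 4 tested genes outside the list, Mst77Y-13 (1.31), Mst77Y-4 (1.28), CG45765 (1.26) and CG45764 (1.04), were all higher, and 3 of them were separated. The axonemal dynein heavy chain gene kl-5 (Y, 22250 to 137486, minus strand) had a lowest, median and highest signal of 23.5, 28.6 and 34.5 in Leo1L testes, against 58.8, 70.3 and 91.2 in controls (difference -1.29, SE 0.084, limma adjusted p = 1.3e-09). kl-2, for another heavy chain of the sperm tail, had 14.7, 16.3 and 19.0 against 35.6, 40.6 and 42.6 (difference -1.24). CCY, a coiled-coil gene, had 22.1, 26.4 and 30.7 against 46.5, 68.3 and 76.0 (difference -1.30), and ORY, also for a coiled-coil protein, had 10.1, 11.4 and 13.8 against 22.9, 28.4 and 45.7 (difference -1.30). All 4 were separated. WDY (-0.89), Pp1-Y1 (-0.74), kl-3 (-0.46) and PRY (-0.25) were lower at smaller differences, and FDY was higher by 0.41. In sorted spermatocytes kl-5, kl-2 and CCY were lower, with differences of -1.72, -1.01 and -1.03, while ORY was at 0.03 (limma adjusted p = 0.935) and Pp1-Y1 was higher by 4.15. Over the 12 listed genes in sorted cells, 2 were higher and 5 lower, with a median of -0.14, beside 9.53% and 6.95% of all genes tested there.

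Most respiratory chain paralogs and most cup and comet genes were lower, all but ND-51L1 by less than the fold limit. This stands beside 19.8% of all tested genes that were lower. Other lists of sperm genes had between 1 of 10 and 5 of 9 members lower. Of 19 tested testis paralogs of respiratory chain subunits, 16 were lower and 1 higher at an adjusted p under 0.05, with a median of -0.37, and their summed signal was 2373 to 2659 in Leo1L testes and 3029 to 3448 in controls. ND-51L1, a paralog of a complex I subunit (2R, 17595267 to 17597409, plus strand), was the only called member. It had 55.5, 57.8 and 61.9 in the cross and 63.1, 61.9 and 58.8 in the inverted cross, against 159.7, 160.2 and 145 in w1118 and 159, 155 and 161 in w1118 iso (difference -1.37, SE 0.0676, limma adjusted p = 4.1e-11). Of 17 cup and comet genes, which are transcribed after meiosis, 10 were lower and 1 higher, with a median of -0.27; the largest fall was in d-cup, at 19.6 to 26.2 in Leo1L testes and 38.2 to 49.5 in controls (difference -0.92). Sperm chromatin genes had 5 of 9 lower and none higher (median -0.21), sperm tail genes 5 of 11 lower and 1 higher (median -0.09), and sperm leucyl aminopeptidases 3 of 9 lower and none higher. Axoneme and tubulin genes had 1 of 10 higher and 1 lower (median 0.02). In sorted spermatocytes, 1 of 19 respiratory paralogs and none of the 17 cup and comet genes was lower, beside 6.95% of all genes tested there. That one was ND-51L1, at 35.0, 54.6 and 43.0 in Leo1L columns and 159, 199 and 137 in control columns (difference -1.88, limma adjusted p = 2.6e-05).

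Elongation and termination factors were higher or did not pass the test, with small differences. Of 21 tested, 9 were higher and none lower (median 0.16), against 20.8% and 19.8% of all tested genes, among them Cpsf160 (0.38), the FACT subunit gene Ssrp (0.37), Cpsf73 (0.35) and Spt5 (0.34). Spt5 had a lowest, median and highest signal of 54.0, 59.2 and 60.5 in Leo1L testes, against 40.2, 46.3 and 50.7 in controls. Of 8 genes of the meiotic arrest complex, which turns on spermatocyte genes, topi (0.33) and achi (0.27) were higher, and of 5 testis TAF genes, which encode testis forms of TFIID subunits, mia was higher, both shares near that of all tested genes. Genes of meiotic entry and division had 2 of 9 higher and none lower, with a median of -0.03 that became 0.03 with one total for every library. The level of mia was 56.3 to 61.8 in Leo1L testes and 35.0 to 39.5 in controls (difference 0.65), and it was higher in sorted spermatocytes too (1.07). No factor of the elongation list was higher in sorted spermatocytes, and 2 were lower, beside 9.53% and 6.95% of all genes tested there. JAK-STAT genes had 4 of 10 higher and 2 lower. The ligand gene upd1 (X, 18305354 to 18309291, minus strand), whose product is secreted by the hub of the stem cell niche, was called lower, with 5.73, 6.91 and 8.14 in Leo1L testes against 13.1, 18.9 and 21.2 in controls (difference -1.27), and in sorted spermatocytes it had 4.70, 8.62 and 6.55 against 26.7, 30.2 and 26.2 (-1.94). Of 19 tested voltage-gated channel genes and partners 6 were higher and 5 lower (median 0.00), and unc79 and para alone were called. Heat shock genes had 4 of 11 higher and none lower.

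**Figure D3:**
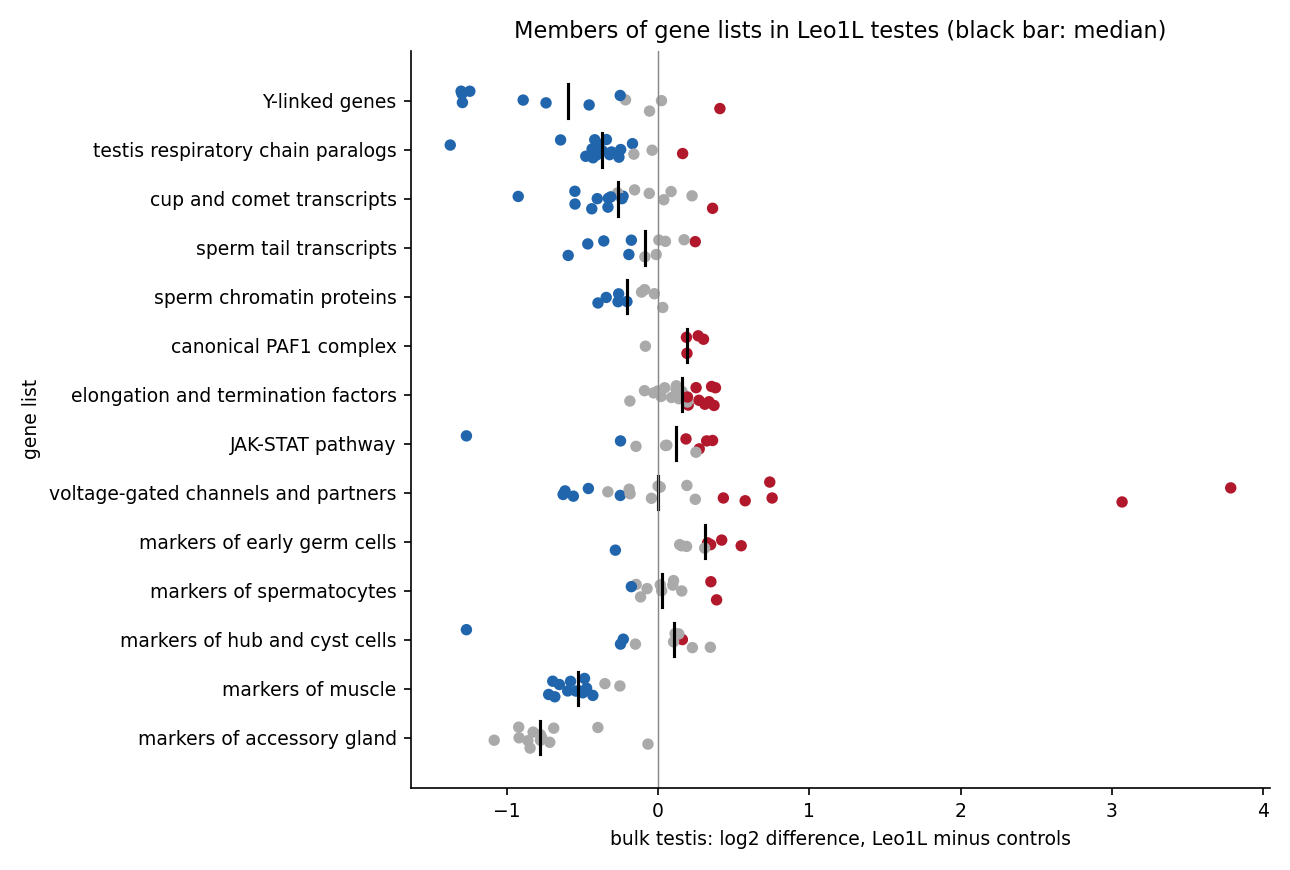
Difference of log2(signal + 1), Leo1L testes minus controls, for the tested members of each gene list; each point is 1 gene (red, higher, and blue, lower, at an adjusted p under 0.05; grey, neither) and each bar the list median. The 12 listed Y-linked genes, respiratory chain paralogs and muscle markers lie mostly below 0, with medians of -0.60, -0.37 and -0.53.

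Markers of cell types were read beside these lists, and beside the 20.8% of all tested genes that were higher and the 19.8% that were lower. Early germ cell markers had 4 of 9 higher and 1 lower (median 0.31); vas, a germline RNA helicase, spanned 22.4 to 30.3 in Leo1L testes and 14.4 to 21.3 in controls (difference 0.55). Spermatocyte markers had 2 of 11 higher and 1 lower, and their summed signal was 6456 to 7482 in Leo1L testes and 6266 to 7980 in controls. Hub and cyst cell markers had 1 of 10 higher and 3 lower, with sums of 249 to 271 and 259 to 282. The lower ones include upd1, which also had a signal of 26.2 to 30.2 in sorted control spermatocytes. Muscle markers had 12 of 14 lower and none higher, with a median of -0.53 and sums of 824 to 1265 in Leo1L testes and 1450.0 to 1711 in controls. A large part of these sums is Act87E, at 392 to 421 and 545 to 693, which is not confined to muscle here. In sorted spermatocytes Act87E spanned 346 to 388 in Leo1L and 477 to 533 in control columns. Act57B spanned 8.98 to 20.4 over these columns, and Mlc2 and Tm2 were at 1.70 or less. Accessory gland markers varied widely within both groups, with sums of 32.9 to 2389 and 555 to 2445, and none of 13 passed the test. Fat body and blood cell markers had 4 of 10 lower and 1 higher, with sums of 199 to 455 and 344 to 533. Neuron markers had none of 8 passing, with sums of 47.8 to 65.0 and 54.9 to 77.1, beside the raised channel and neuropeptide genes. Ejaculatory duct markers had none of 5 passing, and trachea and epidermis markers had 2 of 7 higher and 3 lower. No marker was at 0 in all 12 libraries. The part of muscle, fat body and blood cells in the lowered genes was not tested; with the accessory gland level as a covariate, 88 raised and 72 lowered genes were separated. In whole testes, fewer cells of a type and less RNA per cell cannot be told apart.

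Sorted spermatocytes give a readout of the separated genes that played no part in choosing them, from other flies and another genotype. Among sorted cells 318 of 9495 tested genes were called higher (3.35%) and 67 lower (0.706%); at an adjusted p under 0.05 with no fold limit, 905 were higher (9.53%) and 660 lower (6.95%). Of the 88 raised genes 84 were tested there: 61 were called higher and none lower, 83 were positive, and the median was 1.75. Of the 75 lowered genes 62 were tested: 12 were called lower and 1 higher, 35 were lower at an adjusted p under 0.05, and the median was -0.59, against 0.02 over all tested genes. A further 13 lowered genes had too little signal in sorted cells to be tested. Cpr66Cb, Cpr97Eb and NimC4 were among them.

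Some raised genes differed far more in sorted cells than in whole testes. unc79 had 111, 79.5 and 95.2 in sorted Leo1L columns against 3.50, 1.81 and 2.39 in sorted controls (difference 4.77). CG8850 (2R, 12298747 to 12302240, minus strand) had 63.9, 54.0 and 46.2 against 1.37, 0.518 and 0.743 (difference 4.90), where whole testes had 5.41 to 10.5 and 0.431 to 1.95 (2.01). mew had 68.9, 61.9 and 62.5 against 6.43, 3.62 and 5.91 (3.40), beside 1.30 in whole testes. The control columns of these genes were at 6.43 or less, and no mutant column came near them. CCHa1 (3.82), Cad99C (3.66), Tmc (3.37), tld (3.32), kek3 (3.22), CG17568 (3.20), FMRFaR (3.03) and para (2.37) were called higher as well. The tables were normalised separately and the genotypes differ, so the sizes were set side by side and their difference was not tested. Among lowered genes CG3528 (-2.06), upd1 (-1.94), CG31275 (-0.93) and net (-0.91) were lower in sorted cells too at an adjusted p under 0.05, while CG13334 was at -0.36 (limma adjusted p = 0.0589), CG6055 at 0.69 (0.155) and ple at 0.26 (0.707).

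**Figure D4:**
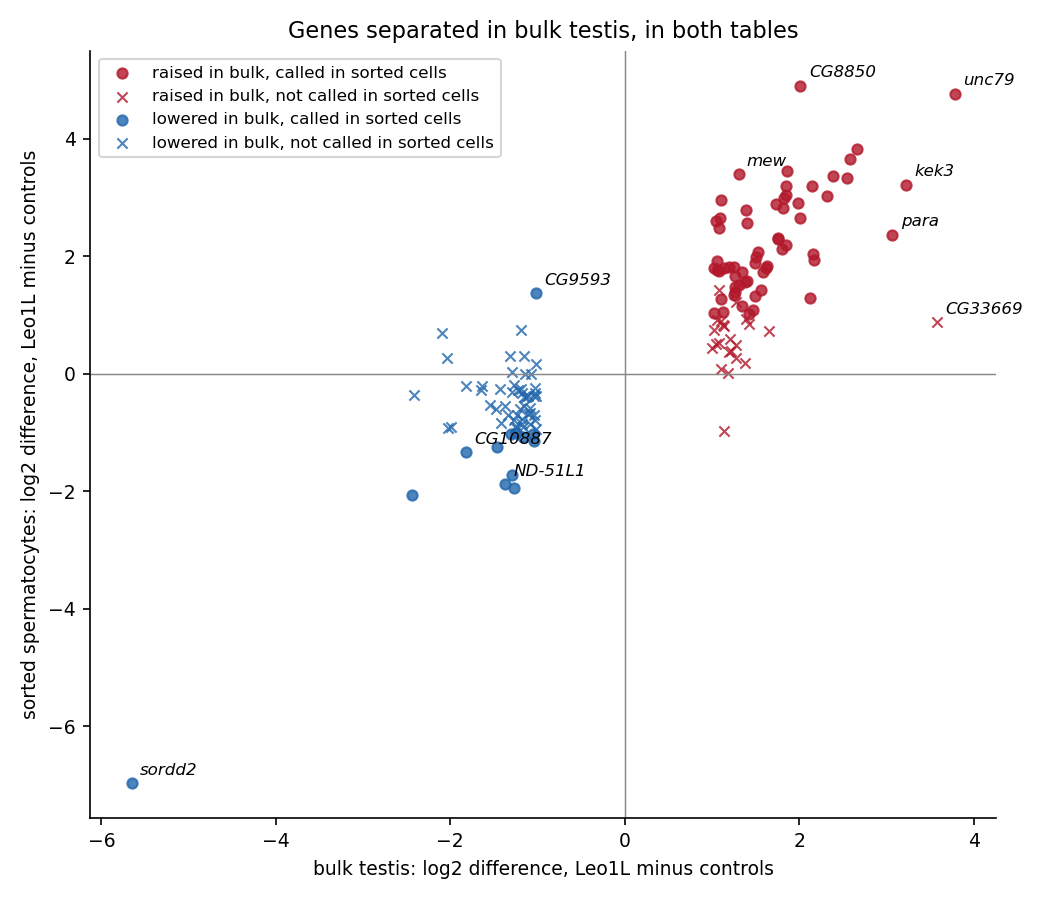
Difference of log2(signal + 1), Leo1L minus controls, in whole testes (x axis) and in sorted spermatocytes (y axis), for the separated genes tested in both; each point is 1 gene, round where called in sorted cells and a cross where not. Of the 84 raised genes 83 lie above 0 on the y axis, and the 62 lowered genes have a median of -0.59 on it.

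The other mutants were set against Leo1L directly, so that no control library entered the difference. Between Leo1L and Paf1L testes 11 genes were called (0.101%), against 58 for Ctr9L (0.531%) and 84 for Cdc73L (0.769%). Groups had 6 libraries for Leo1L and 3 for each other mutant. At an adjusted p under 0.05 alone, 2 of the 88 raised genes were higher and 2 lower in Leo1L than in Paf1L testes (0.0915% and 0.137% of all tested genes), 58 were higher and none lower than in Ctr9L testes (2.56% and 3.62%), and 66 were higher and none lower than in Cdc73L testes (3.55% and 4.86%). Of the 75 lowered genes 2 were lower than in Paf1L, 45 lower than in Ctr9L and 57 lower than in Cdc73L testes, and none was higher. The genes were chosen on these same Leo1L libraries, which favours larger differences in Leo1L. Set against the controls, which all mutants share, the median of the raised genes was 1.36 in Leo1L, 1.44 in Paf1L, 0.69 in Ctr9L and 0.56 in Cdc73L testes, and that of the lowered genes was -1.24, -1.20, -0.61 and -0.54.

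Per-group means of a raised and a lowered gene illustrate this. The mean signal of unc79 was 41.8 ± 6.83 in the cross and 40.6 ± 8.50 in the inverted cross, beside 41.2 ± 5.25 in Paf1L, 9.75 ± 0.432 in Ctr9L and 5.01 ± 1.72 in Cdc73L testes (SD, n = 3 each). The 2 raised genes above Paf1L were the copies Sdic3 (1.16) and Sdic4 (0.82), and the 2 below it were CG32333 (-1.08) and Ret (-1.23), the gene of a receptor tyrosine kinase. For upd1 the means were 7.27 ± 1.34 and 6.60 ± 1.05 in the crosses, 7.96 ± 0.837 in Paf1L, 14.9 ± 1.38 in Ctr9L and 20.4 ± 1.03 in Cdc73L testes (SD, n = 3 each). Leo1L and Paf1L testes lay close together for both genes, and Ctr9L and Cdc73L testes lay nearer the controls. That Leo1L and Paf1L differ in few genes does not show that they act alike. At an adjusted p under 0.05 alone, 25 genes (0.229%) passed between them, and 941 (8.61%) passed an unadjusted p under 0.05. The unadjusted limit also lets genes through without any true difference. Between the Leo1L crosses, with 3 libraries each, 609 genes (5.57%) passed it.

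The crosses themselves differed in few genes. In the inverted cross relative to the cross, 1 gene was called (0.00915%), 4 passed the adjusted p alone (0.0366%) and 609 passed an unadjusted p under 0.05 (5.57%); without cross replicate 3 the number called was 28. All 4 genes are X-linked and lie between positions 279703 and 2080405: CG3777 (-1.57), Cdc45 (0.86), CG16903 (0.65) and hfw (0.62). They also differed between the control stocks, in the same order by -0.74, 1.11, 0.67 and 0.29 in w1118 iso relative to w1118. Each of these passed a limma adjusted p under 0.05. The part of stock background in the cross difference was not tested. CG3777 had 12.4, 7.92 and 11.2 in the inverted cross and 32.2, 31.01 and 35.2 in the cross, beside 6.78, 9.16 and 14.9 in w1118 and 8.08, 4.06 and 4.89 in w1118 iso. Cdc45, a subunit of the replicative helicase, had 11.2, 8.49 and 8.26 in the inverted cross and 4.51, 4.39 and 4.98 in the cross, beside 3.84, 4.63 and 4.17 in w1118 and 11.8, 9.99 and 9.20 in w1118 iso. For Cdc45 the inverted cross thus lay near w1118 iso and the cross near w1118.

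More X-linked genes were higher than lower, a pattern noticed after the data were seen and given as a description. Of 1749 tested X-linked genes 713 were higher (40.8%) and 94 lower (5.37%) at an adjusted p under 0.05. Their median difference was 0.17, while the medians of the autosome arms and chromosome 4 lay between -0.04 and 0.00. In each library the median log2 signal of X-linked genes was set against that of autosomal genes. It was lower by 0.0825 to 0.131 in the 6 Leo1L libraries and by 0.208 to 0.332 in the 6 controls, so that the groups did not overlap. The means were -0.109 ± 0.0204 and -0.271 ± 0.0438 (SD, n = 6 each), a difference of 0.16. The control stocks did not overlap either, at -0.252 to -0.208 in w1118 and -0.332 to -0.284 in w1118 iso. In sorted spermatocytes the means were -0.257 ± 0.0209 in Leo1L and -0.448 ± 0.00632 in control columns (SD, n = 3 each), a difference of 0.19. By group, the means were -0.124 in the cross, -0.0939 in the inverted cross, -0.104 in Paf1L, -0.159 in Ctr9L and -0.150 in Cdc73L testes, against -0.236 in w1118 and -0.306 in w1118 iso. Of the 88 raised genes 27 were X-linked (30.7%), where 16.0% of tested genes are, and of the 75 lowered genes 3 were (4.00%).

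**Figure D5:**
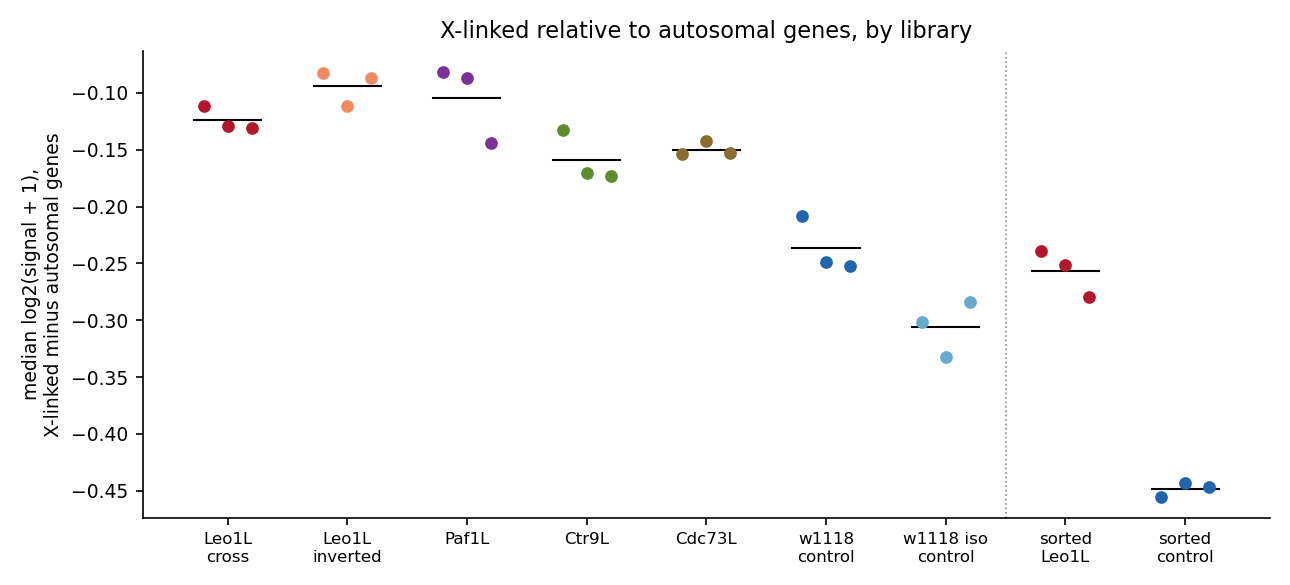
Median log2(signal + 1) of X-linked genes minus that of autosomal genes in each library (y axis), for the Leo1L crosses, the other mutants and the control stocks, and for the sorted columns; each point is 1 library and each bar a group mean. The 6 Leo1L libraries lie between -0.131 and -0.0825 and the 6 controls between -0.332 and -0.208.

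The position of the raised genes was also described, with no test, from the annotation (BDGP6.54, the assembly behind dm6). Each gene was paired with the closest measured gene that lies before its 5′ end without overlapping it. For 60 of the 88 raised genes (68.2%) this upstream gene lay on the same strand, against 43.6% of all tested genes, 52.5% of tested genes with a control mean under 5, and 38 of the 75 lowered genes (50.7%). An upstream gene on the same strand, within 5 kb and with a control signal of at least 10 stood before 36 raised genes (40.9%), against 20.97% of all tested genes, 21.3% of those with a low control mean and 14 lowered genes (18.7%). The median distance in the 36 pairs was 745 bases. Of the 36 upstream genes 10 were higher, 12 lower and 14 without a passing test, with a median difference of -0.06, while the raised genes behind them had a median of 1.41. CCHa1 lies 457 bases behind CG9920, which had a mean signal of 1322 in Leo1L testes and 1343 in controls (difference -0.02). CG8850 lies 303 bases behind salto, at 2808 in Leo1L testes and 3027 in controls (-0.10). unc79 lies 921 bases behind CG5217, at 295 and 346 (-0.22), and kek3 lies 693 bases behind CG15256, at 136 and 160.2 (-0.22). In these 4 pairs the upstream gene had a mean signal of at least 136 in both groups and the gene behind it had little signal in controls. Other raised genes lacked such a neighbour. Of the 12 with the largest difference, 8 had an upstream gene that met the strand, distance and signal limits. para lies 6056 bases behind CG9903, at 0.403 in Leo1L testes and 0.227 in controls. The upstream gene of Con lies 50465 bases away on the other strand, at 0.0151 in controls. Upstream of the lowered gene sordd2 lies CG15602 on the other strand, 263 bases away. The strand setting of the counting is not given in the sources used here, so reads of overlapping or antisense transcripts could not be told apart.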

How the data were processed

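RNA of whole testes and of sorted spermatocytes was sequenced. Values are a normalised signal per gene that the authors deposited under the name GeTMM, in 1 table for each experiment with 13659 genes. Per the submitters' processing notes, STAR, Salmon, edgeR 3.34.0, DESeq2 and the build dm6 were used, with no role or order given; the strand setting and the handling of reads that match several genes are not given in the sources used here. Each sorted column joins a library depleted of ribosomal RNA and one not depleted. The lowest values lay near whole multiples of a step (within 0.1) in 54.9% to 86.2% of cases, too few to recover reads, so no count model was used; the shares were alike in short and long genes, so the values are not divided by gene length, and depth and 3-read floors are approximate.

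Genes with a mean signal of at least 1 over a table's libraries were tested (10925 in whole testes, 9495 in sorted cells) on log2(signal + 1). limma 3.58.1 in R 4.3.3 (lmFit, eBayes with trend) fitted all 7 whole-testis groups together and the sorted table on its own, with Benjamini-Hochberg adjustment over the genes of each comparison. Both crosses and both stocks had equal weight. The fit was tested on simulated data. Positions came from Ensembl annotation 115 of BDGP6.54, matched by symbol or synonym for 13642 genes (99.9%); the tables hold no coordinates. Alternatives changed the pseudocount, filter, scaling, fold limit, samples in the fit, control stock, cross, replicate block, an accessory gland covariate and each replicate in turn.

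The genes, gene lists and comparisons were chosen with earlier results of these data known. Named genes are CG10887, both PAF1 lists, the 12 separated genes with the largest difference in each direction, up to 4 members of each list, the 3 largest called but overlapping genes in each direction, up to 3 separated genes in each direction that differed most from Paf1L mutants, those called in the opposite direction in sorted cells, and the genes at the fold limit. Genes named beyond that rule, the receptor, Tweedle and multi-copy families, the X chromosome and the upstream neighbours were chosen after their values were seen.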

Additional observations from a re-analysis of the deposited data

Results flagged for a closer look

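In 98 measures on the 6 Leo1L libraries, 7 (7.14%) had 1 library far from the other 5 by a gap test that chance passes in about 1 of 20 groups. Ctr9 was 88.95 in inverted cross replicate 1, against 76.3 to 79.8 in the other 5. h-cup was 166.0 in the same library, against 113 to 130 in the others, and S-Lap7 was 5431.0 there, against 4461 to 4675. s-cup was 3.861 in inverted cross replicate 3, against 5.32 to 6.17. Mal-A6, a maltase gene, was 61.58 in cross replicate 1, against 15.6 to 18.2. sordd2 was 0.2941 in inverted cross replicate 2 and RabX2 was 0.0946 in cross replicate 1, where the other 5 libraries were at 0, so that a few reads set both.

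CG9593 was lower in Leo1L whole testes (-1.02) and higher in sorted Leo1L spermatocytes, by 1.3718; the difference between these changes was not tested. Its signal spanned 1.45 to 2.30 in Leo1L testes and 2.61 to 5.74 in controls, and 1.48 to 2.56 in sorted Leo1L columns and 0.00 to 0.296 in sorted controls. The inverted cross differed from the cross, by limma at a Benjamini-Hochberg adjusted p under 0.05, in CG3777 (-1.5744), Cdc45 (0.864), CG16903 (0.6486) and hfw (0.6244).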

How the results depend on the processing

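Counts of called genes moved with the fold limit, the pseudocount, the filter on low values and the control stock. With a pseudocount of 0.1, 184 genes were raised and 217 lowered in Leo1L testes, and 88 and 147 differed from Ctr9L and Cdc73L mutants. With a pseudocount of 5, these numbers were 40, 48, 15 and 28, those separated were 35 raised and 34 lowered, 2 genes differed between the crosses, 7 from Paf1L and 65 between stocks, and sorted cells had 117 raised and 21 lowered. With a mean signal of at least 5, 65 were raised, 52 of the raised separated, 33 and 44 differed from Ctr9L and Cdc73L, 90 between stocks, and 183 were raised in sorted cells. Without a fold limit the counts were 2268 raised, 2163 lowered, 853 and 747 separated, 4 between crosses, 25, 675 and 919 against Paf1L, Ctr9L and Cdc73L, 949 between stocks, and 905 and 660 in sorted cells. With w1118 as the only controls 262 were lowered and 149 raised and 229 lowered were separated; with the cross alone 127 differed from Cdc73L. Fitting only the groups compared gave 0 genes between crosses and 83 between stocks, and the accessory gland covariate gave 2 between crosses. Replicate numbers did not pair the libraries: 18 same-numbered pairs of whole-testis libraries had deviations correlated at -0.42 to 0.22, and 3 pairs were over 0.1. The replicate block gave 108 raised and 129 lowered genes, 88 and 75 separated, and 324 and 67 in sorted cells. Quantile scaling, one total, no filter, w1118 iso alone, the inverted cross alone and 1 group for both crosses and for both stocks (added after the data were seen) kept these counts within 1.5 times. Small list counts moved more: with one total, 3 sperm chromatin genes, 1 hub or cyst marker and 1 neuropeptide receptor were lower, and with quantile scaling 3 sperm tail genes were higher. Leaving out 1 replicate gave 100 to 127 raised, 118 to 161 lowered, 85 to 98 and 74 to 104 separated, 0 to 28 between crosses, 75 to 129 against Cdc73L (129 without inverted cross replicate 3), 241 to 327 and 54 to 78 in sorted cells. CG10887 lay between -1.87 and -1.61 in all alternatives, and the X difference between 0.13 (w1118 as the only controls) and 0.20 in those where it was computed. Of 2576 alternatives over 96 named genes, 2457 kept direction and side of the adjusted p threshold and 118 lost it. The remaining one was Cyp12d1-d, at 0 with w1118 iso as the only controls, where all libraries are at 0. Of the 43 named genes past both the adjusted p and the fold limit, 25 stayed past both in every alternative with that limit; 38 of 1105 alternatives fell under the fold limit alone, CG33669 to 0.59 and CG2065 to -0.40 among them. Depth limits genes near 3 reads, and 3 libraries per group limit the comparisons of crosses, stocks and sorted cells.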
